A study of Mus musculus with 6 samples.

Results

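The kallikrein-related peptidases of the epidermis and *Spink5*, the gene for their inhibitor LEKTI, were examined in mouse skin with an activated YAP transgene. The group holds 10 of the 26579 genes in the count table. They are *Klk5*, *Klk6*, *Klk7*, *Klk8*, *Klk9*, *Klk10*, *Klk11*, *Klk13*, *Klk14* and *Spink5*, chosen by name and found by the Ensembl identifiers that carry these names in GENCODE release M21 (GRCm38). RNA-Seq had been done on whole punch biopsies of dorsal neck skin from female mice at postnatal day 33. The 3 YAP2-5SA-∆C mice (TG) carried a transgene for a weakly activated form of YAP, driven in the basal layer of the epidermis where Keratin 5 and 14 are made, and were sampled when outward signs had just begun to appear. The 3 wild type mice (WT) were littermates without the transgene, and no other treatment or allele was named in the labels.

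Kallikrein-related peptidases are secreted serine proteases that are made as inactive precursors. In the granular layer they are released into the spaces between cells, where KLK5 can activate itself and other family members, and where KLK5 and KLK7 cut the corneodesmosome proteins that hold the outer cells together. LEKTI restrains KLK5, KLK7 and KLK14, and loss of it causes the barrier disease Netherton syndrome. The comparison asked how the transcripts of this protease system differed between YAP2-5SA-∆C skin, described by the study as hyperplastic, dry and scaly, and wild type skin.

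In YAP2-5SA-∆C skin the kallikrein transcripts were mostly more abundant, with *Klk9* the member that passed the test and *Klk10* the member that lay the other way. *Klk9* rose 2.19-fold, and the values of *Klk5*, *Klk6*, *Klk7*, *Klk8*, *Klk11*, *Klk13* and *Spink5* were between 1.26-fold and 1.73-fold of wild type without passing the threshold. *Klk10* had 0.671 of its wild type level, also without passing. *Klk14* was close to absent in both genotypes. In bulk skin, a change in the number of cells that express a gene and a change in RNA per cell cannot be told apart.

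A gene was tested where its counts, scaled to a library of 1000000 (CPM), reached 1 in 3 or more libraries, which 9 of the 10 members did. By the edgeR quasi-likelihood test, with p-values adjusted after Benjamini and Hochberg over all 15102 tested genes (FDR), 1 of the 9 was called higher at the threshold of 0.05 and 0 were called lower, where 1.44% of all tested genes were called higher, 0.464% lower and 1.91% in either direction. All 9 had an unadjusted p-value below 0.05, against 26.3% of all tested genes. For 8 members every YAP2-5SA-∆C library lay above every wild type library, which held for 15.5% of all tested genes. For *Klk10* every YAP2-5SA-∆C library lay below every wild type library, which held for 18.3% of them. The median log2 fold change was 0.55 over the 9 members and -0.01 over all tested genes. All members were read in the same 6 libraries, so their directions are not independent observations.

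**Figure D1:**
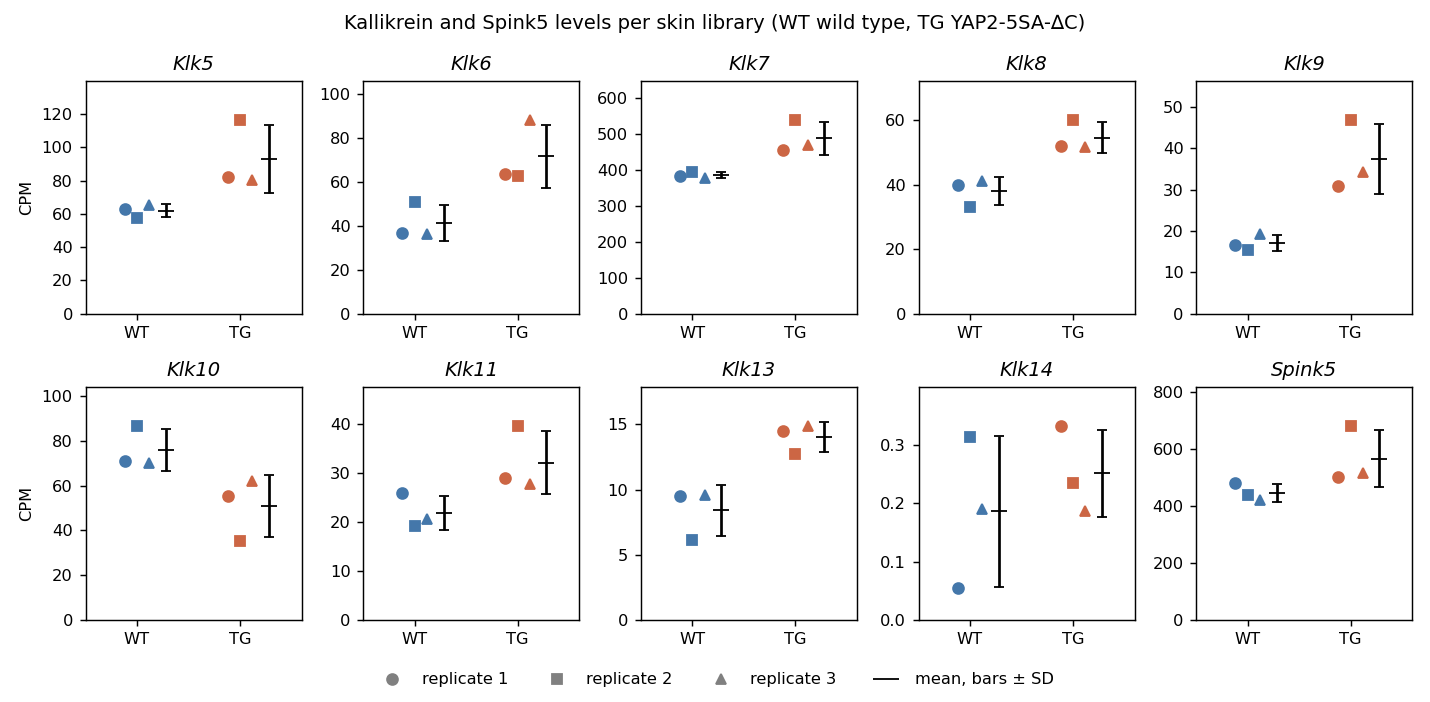
CPM (y axis, starting at 0, a separate scale for each gene) of the 10 genes in the 3 wild type (WT) and 3 YAP2-5SA-∆C (TG) libraries, with one symbol per replicate and the group mean ± SD beside the points. For 8 genes all TG points lie above all WT points, for *Klk10* all lie below, and for *Klk14*, at 0.333 CPM or less, they overlap.

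Among the proteases tied most closely to shedding of the outer cells, *Klk7* encodes the chymotrypsin-like enzyme of the stratum corneum. It had 384, 396 and 379 CPM in wild type replicates 1, 2 and 3 and 456, 540 and 468 CPM in YAP2-5SA-∆C replicates 1, 2 and 3. The wild type values were tightly grouped and all transgenic values lay above them. The log2 fold change of *Klk7* was 0.34 ± 0.08 (SE, edgeR FDR 0.0640). *Klk5* encodes the trypsin-like enzyme that starts the activation cascade. It had 63.2, 57.6 and 65.1 CPM in wild type against 82.0, 117 and 80.2 CPM in YAP2-5SA-∆C skin, in the order of the replicates. YAP2-5SA-∆C replicate 2 was far above the other transgenic libraries. The log2 fold change of *Klk5* was 0.59 ± 0.15 (SE, edgeR FDR 0.0723).

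*Klk14* encodes a further trypsin-like protease, which can activate KLK5 and is itself a target of LEKTI. It had between 1 and 6 counts in each wild type library and between 3 and 6 in each YAP2-5SA-∆C library, and it did not reach the filter. Of its exonic bases, 22.6% are shared with *2310002F09Rik* on the opposite strand, so its few counts may also depend on how reads in shared bases were treated. These counts leave its response unmeasured. Without the filter on low counts, edgeR put its log2 fold change at 0.43 and its FDR at 0.736.

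*Klk9*, a less studied member with chymotrypsin-like specificity, had 16.6, 15.4 and 19.2 CPM in the wild type libraries against 30.9, 46.9 and 34.1 CPM in the transgenic ones, by replicate. The lowest transgenic value was well above the highest wild type value. The log2 fold change was 1.13 ± 0.17 (SE), the largest among the tested members, and edgeR gave *Klk9* an FDR of 0.0398. On leaving out single libraries the log2 fold change stayed between 0.95 and 1.27, but the call did not always hold. With wild type replicate 1, 2 or 3 left out, the edgeR FDR of *Klk9* was 0.0655, 0.178 and 0.132, and with transgenic replicate 3 left out it was 0.0906. *Klk9* still passed after removal of transgenic replicate 1 or 2, with an FDR of 0.0481 and 0.0127 (edgeR).

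*Klk6*, *Klk8*, *Klk11* and *Klk13* encode trypsin-like members of the family. *Klk6* had 36.6, 50.7 and 36.5 CPM in wild type against 63.7, 62.9 and 88.2 CPM in YAP2-5SA-∆C skin, with its highest value in YAP2-5SA-∆C replicate 3 (log2 fold change 0.79 ± 0.18, SE, edgeR FDR 0.0621). *Klk13* had 9.49, 6.16 and 9.59 CPM against 14.5, 12.7 and 14.9 CPM (log2 fold change 0.74 ± 0.18, SE, edgeR FDR 0.0666). For *Klk6* and *Klk13*, YAP2-5SA-∆C replicate 2 was the lowest of the transgenic libraries, whereas for *Klk5*, *Klk7*, *Klk8*, *Klk9*, *Klk11* and *Spink5*, 6 genes, it was the highest. *Klk8*, which encodes neuropsin, ranged from 32.9 to 41.1 CPM in wild type, and from 51.6 to 60.1 CPM in YAP2-5SA-∆C skin, with a log2 fold change of 0.52 ± 0.11 (SE). Its edgeR FDR of 0.0546 was the nearest to the threshold among the members that missed it. *Klk11* ranged from 19.3 to 25.9 CPM and from 27.8 to 39.7 CPM (log2 fold change 0.55 ± 0.17, SE, edgeR FDR 0.101). Neither *Klk8* nor *Klk11* overlapped between the genotypes. In *Klk8*, 24.8% of the exonic bases are shared with *2310002F09Rik* on the opposite strand, a gene with 1.06 CPM in wild type and 2.11 CPM in transgenic skin (log2 fold change 0.90 ± 0.52, SE, edgeR FDR 0.313). Its part in the *Klk8* values was not tested. Whether reads in the shared bases were dropped depends on a strand setting that is not given in the sources used here.

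*Klk10* was the tested member with lower values in transgenic skin. It had 70.8, 86.6 and 70.0 CPM in wild type against 55.3, 35.2 and 62.0 CPM in YAP2-5SA-∆C replicates 1, 2 and 3. YAP2-5SA-∆C replicate 2, which was highest for 6 members, was the lowest library for *Klk10*. The log2 fold change of *Klk10* was -0.58 ± 0.20 (SE, edgeR FDR 0.135), and -0.35 without that library. Within each library, the log2 ratio of *Klk10* to *Klk9*, the next gene along the chromosome, was 2.15 ± 0.32 in wild type and 0.43 ± 0.73 in transgenic skin (SD, n = 3 each). That to *Klk11*, the gene before it, was 1.79 ± 0.36 and 0.64 ± 0.71. Since *Klk10* was lower and both neighbours higher in every transgenic library, these ratios only describe the size of the gap.

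*Spink5*, the inhibitor, had 479, 438 and 419 CPM in wild type against 500.2, 680 and 515 CPM in YAP2-5SA-∆C replicates 1, 2 and 3. All transgenic values were higher, but that of replicate 1 was close to the highest wild type value. *Spink5* had a log2 fold change of 0.34 ± 0.13 (SE), or 0.21 without YAP2-5SA-∆C replicate 2. Its edgeR FDR of 0.150 was the highest among the tested members.

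Levels of different genes were compared as CPM per kilobase of merged exons (RPKM). *Klk7* was the most abundant member in both genotypes, with 204 ± 4.57 RPKM in wild type and 258 ± 23.9 RPKM in transgenic skin (SD, n = 3 each), followed by *Spink5* with 93.1 ± 6.44 RPKM and 118 ± 20.9 RPKM. In wild type the order went on with *Klk10* (55.2 RPKM), *Klk5* (46.4), *Klk6* (27.3), *Klk8* (24.7), *Klk11* (15.0), *Klk9* (11.5), *Klk13* (3.66) and *Klk14* (0.146), where each value is a mean RPKM. The library ranges of neighbours in this order were apart except for *Klk6* and *Klk8*. In YAP2-5SA-∆C skin *Klk10* stood at position 5 rather than 3 of the order, with 37.0 RPKM, below *Klk5* (69.6 RPKM) and *Klk6* (47.3 RPKM), and *Klk9* (25.3 RPKM) came before *Klk11* (22.0 RPKM). There the ranges of *Klk6* and *Klk10*, of *Klk10* and *Klk8*, and of *Klk9* and *Klk11* overlapped.

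**Figure D2:**
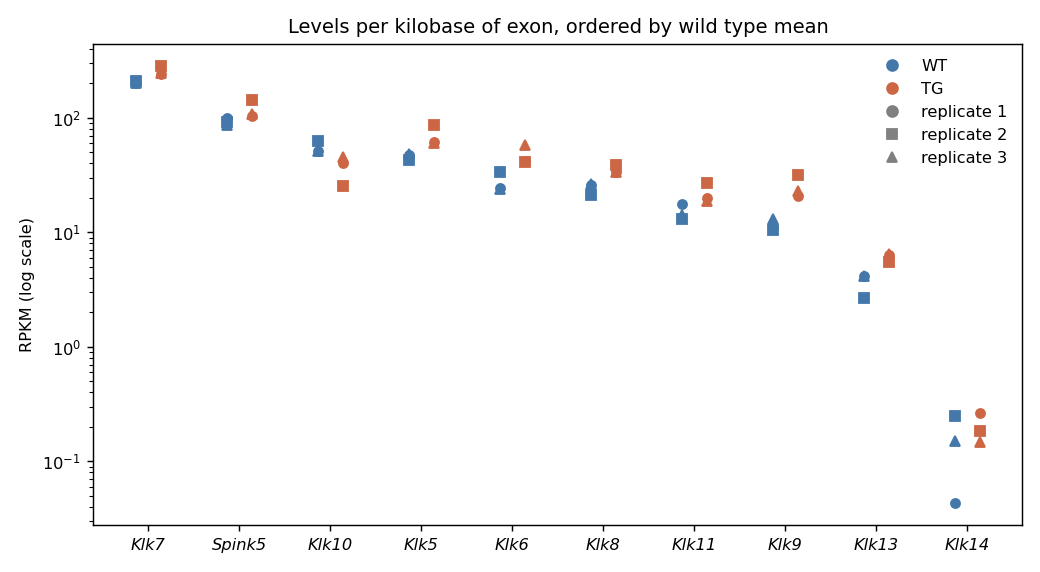
RPKM (log scale) of the 10 genes per library in wild type (blue) and YAP2-5SA-∆C skin (orange), with genes ordered by their wild type mean. *Klk7* is highest at 204 and 258 RPKM, and *Klk14* lowest at 0.146 and 0.198 RPKM.

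The 9 kallikrein genes together had 388 ± 7.67 RPKM in wild type and 500.4 ± 39.2 RPKM in transgenic skin (SD, n = 3 each). *Klk7* made up 52.6% of this sum in wild type and 51.4% in transgenic skin, and its share lay between 50.1% and 52.7% in all 6 libraries. The share of *Klk10* was 14.2% ± 1.47 in wild type and 7.51% ± 2.43 in transgenic skin, and that of *Klk9* was 2.98% ± 0.393 and 5.01% ± 0.730 (SD, n = 3 each). For these genes the genotypes did not overlap. The share of *Klk7* had the smallest relative difference between the genotypes. As *Klk7* makes up most of the sum, its share moves less with its own level than the shares of the other genes do.

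The balance of protease and inhibitor transcripts was described by the log2 ratio of each kallikrein's CPM to that of *Spink5* in the same library. For *Klk7* the ratio was -0.20 ± 0.10 in wild type and -0.20 ± 0.11 in transgenic skin (SD, n = 3 each), a difference of 0.00 with overlapping genotypes. *Klk7* and *Spink5* thus had closely similar differences between the genotypes. For *Klk5* the ratio was -2.85 ± 0.14 and -2.61 ± 0.07, and the genotypes were barely apart, at -2.69 in wild type replicate 3 and -2.68 in YAP2-5SA-∆C replicate 3. The ratio of *Klk9* was -4.71 ± 0.23 and -3.93 ± 0.08, and that of *Klk10* was -2.56 ± 0.21 and -3.50 ± 0.67, in wild type and transgenic skin, both with no overlap. In all, 3 of the 8 kallikreins had a higher ratio in every YAP2-5SA-∆C library (*Klk5*, *Klk9* and *Klk11*), 1 had a lower ratio (*Klk10*) and 4 overlapped. For *Klk11* too the genotypes were barely apart, at -4.21 in both wild type replicate 1 and YAP2-5SA-∆C replicate 3. Of all tested genes, 2.77% had a higher and 46.9% a lower ratio to *Spink5* in every YAP2-5SA-∆C library. These are ratios of transcripts, and no protein or activity was measured in these files.

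**Figure D3:**
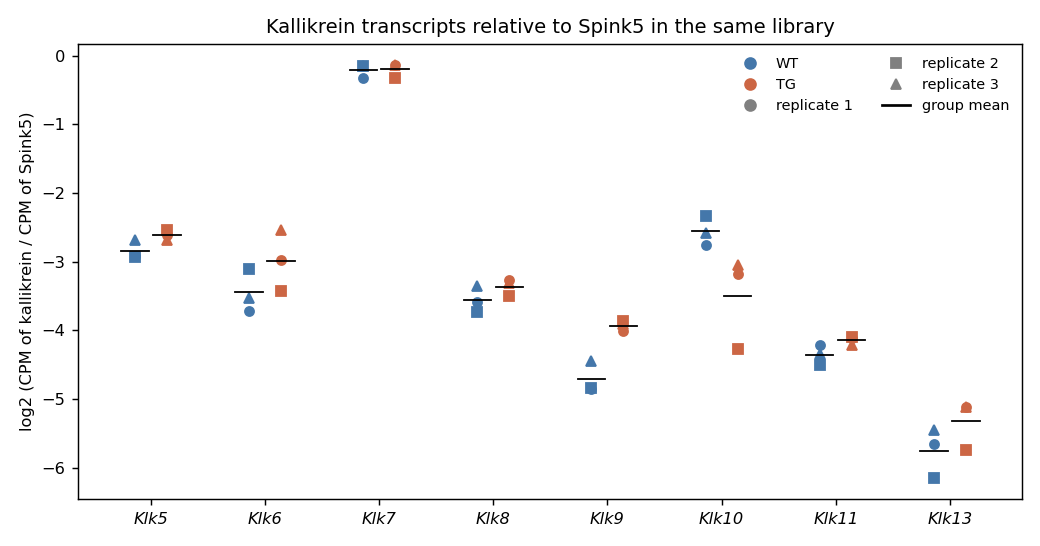
Log2 ratio of each kallikrein's CPM to that of *Spink5* in the same library (y axis) for wild type (blue) and YAP2-5SA-∆C (orange) libraries, with group means as lines. *Klk7* has the same mean of -0.20 in both genotypes, *Klk9* lies higher and *Klk10* lower in all TG libraries.

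The 9 kallikreins form a tandem cluster on the plus strand of chromosome 7 (GRCm38), from 43690418 to 43851181, a span of 161 kb. *Klk7* (ENSMUSG00000030713) lies from 43811294 to 43816359 and *Klk5* (ENSMUSG00000074155) from 43841971 to 43851181. *Klk14* comes first, followed by *Klk13*, *Klk11*, *Klk10*, *Klk9*, *Klk8*, *Klk7*, *Klk6* and *Klk5*. *Klk10* (ENSMUSG00000030693) lies from 43781035 to 43785410 and *Klk9* (ENSMUSG00000047884) from 43791891 to 43796757, so the member with the lower values sits between members with higher ones. Of 39 other annotated genes within the cluster or 200 kb on either side, 16 had counts and 5 were tested. With edgeR, 0 of the 5 passed the FDR threshold and 2 had an unadjusted p-value below 0.05. These were *Cd33*, a myeloid receptor gene (log2 fold change 0.67, FDR 0.0621), and *Zfp719*, a zinc finger gene (log2 fold change -0.36, FDR 0.101). Beyond *Klk5*, 23 annotated genes, among them the glandular kallikreins of the *Klk1b* group, included 0 that were tested.

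**Figure D4:**
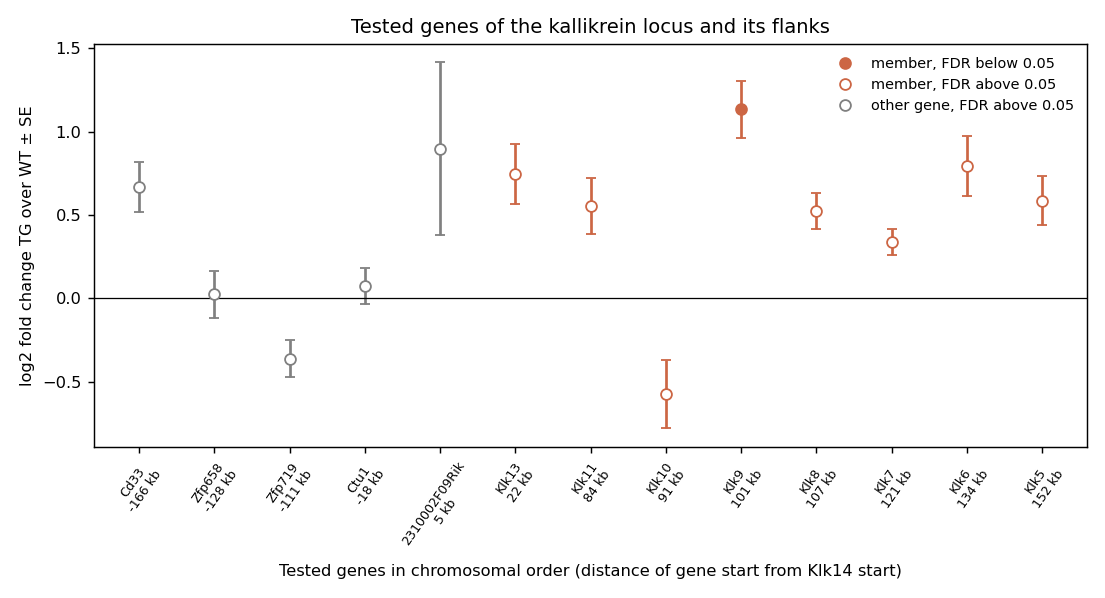
Log2 fold change of YAP2-5SA-∆C over wild type with its standard error (y axis) for the tested genes of the kallikrein cluster and its flanks, in chromosomal order with the distance of each start from that of *Klk14* in kb (x axis). *Klk9* (filled, FDR 0.0398) is at 1.13 and its neighbour *Klk10* at -0.58, and the 5 genes that are no members lie between -0.36 and 0.90.

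The upstream sequences of the cluster were looked at because most of its tested members had higher values in skin with an activated TEAD cofactor. Of these only *Klk9* passed the test. In the 250 bases before each of 11 RefSeq starts of the 9 kallikrein genes (GRCm38.p6), the TEAD letters GGAATG were found on either strand before 1 start, of *Klk6*, and occurred before 12.6% of 32851 mouse starts. The AP-1 letters TGANTCA (before 6.75% of all starts), the Grainyhead-like letters AACNNGTT (3.64%) and, on the gene's strand, TATAAA (7.59%) were found before 0 of the 11. A match of these letters is a description of the sequence and not a binding site. Only these upstream bases were searched. The study searched 3′ UTRs instead, since earlier work had placed such motifs in enhancers more than in promoters. The *Klk6* match is shown in capitals with its flanks, at chr7:43825303-43825308 on the plus strand. It lies before the more downstream *Klk6* start, inside the annotated gene, which begins at 43824499. For *Klk9* and *Klk10*, the neighbours that lay in opposite directions, the bases from 150 to 51 before the start are shown (chr7:43791741-43791840 and chr7:43780904-43781003, plus strand), with CG pairs, the sites of DNA methylation, in capitals.

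Klk6: tgtggggcagaaGGAATGcatgtgggcggc

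Klk9: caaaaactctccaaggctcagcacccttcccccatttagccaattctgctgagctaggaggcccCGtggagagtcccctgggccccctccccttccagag

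Klk10: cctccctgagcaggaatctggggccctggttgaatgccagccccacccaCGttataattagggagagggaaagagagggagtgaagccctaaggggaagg

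Each of the windows of *Klk9* and *Klk10* held 1 CG pair. Over the full 250 bases, the starts of the cluster held between 0 (*Klk14*) and 18 (*Klk8*) CG pairs with a median of 3, against a median of 6 over all starts. *Klk9* (4 pairs) and *Klk10* (2 pairs) were close to each other in this measure, and GC content was 58.4% and 56.0%.

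*Spink5* (ENSMUSG00000055561) lies apart from the cluster, on chromosome 18 from 43963235 to 44022501, among other genes of Kazal-type inhibitors. Of 12 other inhibitors of proteases in the epidermis, 8 were tested and 0 were called, although 6 had an unadjusted p-value below 0.05 (edgeR), 4 with higher and 2 with lower values. The lowest p-values were those of *Spink7*, a small Kazal inhibitor (log2 fold change 2.00 ± 0.41, SE, FDR 0.0551), and *Spint1*, which encodes the matriptase inhibitor HAI-1 (log2 fold change -0.65 ± 0.14, SE, FDR 0.0588). *Spink7* was scarce, at 0.465 ± 0.321 CPM against 1.99 ± 0.354 CPM (SD, n = 3 each). Of 4 other kallikreins 0 were tested. *Klk15* had between 0.950 and 1.62 CPM in wild type against 0.117 to 0.810 CPM in YAP2-5SA-∆C libraries, and *Klk12* had at most 0.646 CPM in any library.

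Of 13 proteases that can activate kallikreins or act upstream of them, 8 were tested and 1 was called. *St14*, which encodes matriptase, a membrane protease that can activate kallikrein precursors, had 124 ± 5.62 CPM in wild type and fell to 86.2 ± 9.57 CPM in transgenic skin (SD, n = 3 each), with a log2 fold change of -0.52 ± 0.09 (SE, edgeR FDR 0.0451). Every call of the quasi-likelihood test was lost without wild type replicate 2 or 3 or transgenic replicate 3, where edgeR called 0 genes and 2726, 2844 and 3691 genes had an unadjusted p-value below 0.05. That of *St14* was also lost without wild type replicate 1 (edgeR FDR 0.0730) or transgenic replicate 1 (0.0709) and held only without transgenic replicate 2 (0.0215). The inhibitor gene *Spint1* thus lay in the same direction as the gene of its target protease, and opposite to most kallikreins. Of 9 other epidermal proteases all were tested and 0 were called. The lowest p-values were those of *Blmh*, which encodes bleomycin hydrolase (log2 fold change 0.42, FDR 0.0618), and *Asprv1*, which encodes the protease SASPase (log2 fold change 0.53, FDR 0.0657), both proteases of filaggrin processing.

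Among genes of the corneodesmosome, which the kallikreins take apart, 10 of 10 were tested and 1 was called. *Dsg1c*, a minor desmoglein gene, had 5.19 ± 0.268 CPM in wild type and rose to 14.9 ± 6.11 CPM (SD, n = 3 each), with a log2 fold change of 1.52 ± 0.27 (SE, edgeR FDR 0.0467). On leaving out single libraries this call held only without transgenic replicate 2, and the edgeR FDR lay between 0.0122 and 0.190. With all libraries kept, the call of *Dsg1c* was lost with voom (FDR 0.064) and with a replicate block (edgeR FDR 0.169), and held in the other settings. *Dsg1c* has close copies in *Dsg1a* and *Dsg1b*, so the division of uniquely mapped reads among them is uncertain. *Cdsn*, which encodes the KLK5 and KLK7 substrate corneodesmosin, and *Dsc1*, which encodes the substrate desmocollin 1, were singled out after their values were seen. *Cdsn* had 278 ± 37.6 CPM and 309 ± 51.5 CPM, and *Dsc1* 696 ± 32.9 CPM and 703 ± 42.5 CPM, wild type before transgenic (SD, n = 3 each). For both the genotypes overlapped, with log2 fold changes of 0.15 ± 0.14 and 0.01 ± 0.08 (SE). *Dsg1b*, also singled out after its values were seen, was higher in every transgenic library, at 223 ± 8.08 CPM and 300 ± 28.2 CPM (SD, n = 3 each), with a log2 fold change of 0.43 ± 0.08 (SE) that did not pass (edgeR FDR 0.0505). All 10 genes of the list had positive log2 fold changes, with a median of 0.18, where 7194 of all 15102 tested genes were positive. For 2 of the 10, every transgenic library lay above every wild type library, against 15.5% of all tested genes.

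Of 8 envelope and lipid genes, 7 were tested and 0 were called, and *Hrnr*, which encodes hornerin, had a log2 fold change of 0.62 (edgeR FDR 0.136). Of 10 genes for signalling molecules that kallikreins cut or that respond to them, 7 were tested and 1 was called. *Il33*, which encodes an alarmin cytokine, had 18.5 ± 3.19 CPM in wild type and rose to 59.4 ± 8.42 CPM (SD, n = 3 each), a log2 change of 1.69 ± 0.15 (SE, edgeR FDR 0.0194). The call of *Il33* was lost without wild type replicate 2 or 3 or transgenic replicate 3, with an edgeR FDR of 0.112, 0.0513 and 0.0906. *F2rl1*, which encodes the receptor PAR2 that KLK5 cuts and was singled out after its values were seen, had 32.8 ± 2.07 CPM and 31.2 ± 2.02 CPM, with overlapping genotypes (log2 fold change -0.07 ± 0.08, SE). Of 14 transcription factors of late differentiation all were tested and 0 were called, 3 with higher and 6 with lower values at an unadjusted p-value below 0.05. The lowest p-values were those of *Cebpa* (log2 fold change 0.42, FDR 0.0897) and *Prdm1* (log2 fold change -0.19, FDR 0.0960).

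The members were also set against markers of the layers and cells in the biopsy, summed within each library. The markers of skin were present, with *Krt14*, the basal keratin, rising from 1645 to 3181 CPM (log2 fold change 0.95 ± 0.11, SE, edgeR FDR 0.0300), and *Krt10*, the suprabasal keratin, at 2043 and 3047 CPM (log2 fold change 0.58, edgeR FDR 0.245), all as means of 3 libraries. The sum of 6 detected suprabasal markers was 4268 to 5193 CPM in wild type against 5700 to 10373 CPM in YAP2-5SA-∆C libraries, and that of 5 basal markers 3257 to 3971 CPM and 5501 to 7084 CPM. The sum of 12 hair shaft and inner root sheath genes was 14590 to 19199 CPM in wild type against 1490 to 9647 CPM in YAP2-5SA-∆C libraries, with the lowest value in YAP2-5SA-∆C replicate 2. That is also the library lowest for *Klk10*, and highest for 6 other members and for the suprabasal sum. The parts of these cell populations in the kallikrein values were not tested.

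Relative to the suprabasal sum, 7 of the 9 tested members had overlapping genotypes. *Klk9* lay higher, with a log2 ratio of -8.15 ± 0.13 in wild type and -7.61 ± 0.21 in transgenic skin, and *Klk10* lay lower, with -6.00 ± 0.32 and -7.18 ± 0.89 (SD, n = 3 each), both with no overlap. For *Klk7* the ratio was -3.64 ± 0.18 and -3.88 ± 0.34, and for *Spink5* -3.44 ± 0.15 and -3.68 ± 0.23. Relative to the sum of these markers, then, neither *Klk7* nor *Spink5* was separated between the genotypes. Of all tested genes, 0.656% lay higher and 60.0% lower in every YAP2-5SA-∆C library on this ratio. *Klk10* thus shared the direction of most genes, but the size of its difference, -1.19, was not compared with theirs. Relative to the basal sum, *Klk9* was higher in every YAP2-5SA-∆C library, 5 members were lower in every one (*Klk7*, *Klk8*, *Klk10*, *Klk11* and *Spink5*) and 3 overlapped. On this ratio 0.510% of all tested genes were higher and 84.8% lower in every YAP2-5SA-∆C library. The lower members thus shared the direction of most genes, but the sizes were not compared. The log2 ratio differed between the genotypes by -1.39 for *Klk10*, -0.45 for *Klk7* and *Spink5*, -0.26 for *Klk8* and -0.24 for *Klk11*. Relative to the hair sum, all 9 were higher in every YAP2-5SA-∆C library, but so were 92.7% of all tested genes (0.616% were lower in every one), and the sum itself was lower in each.

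**Figure D5:**
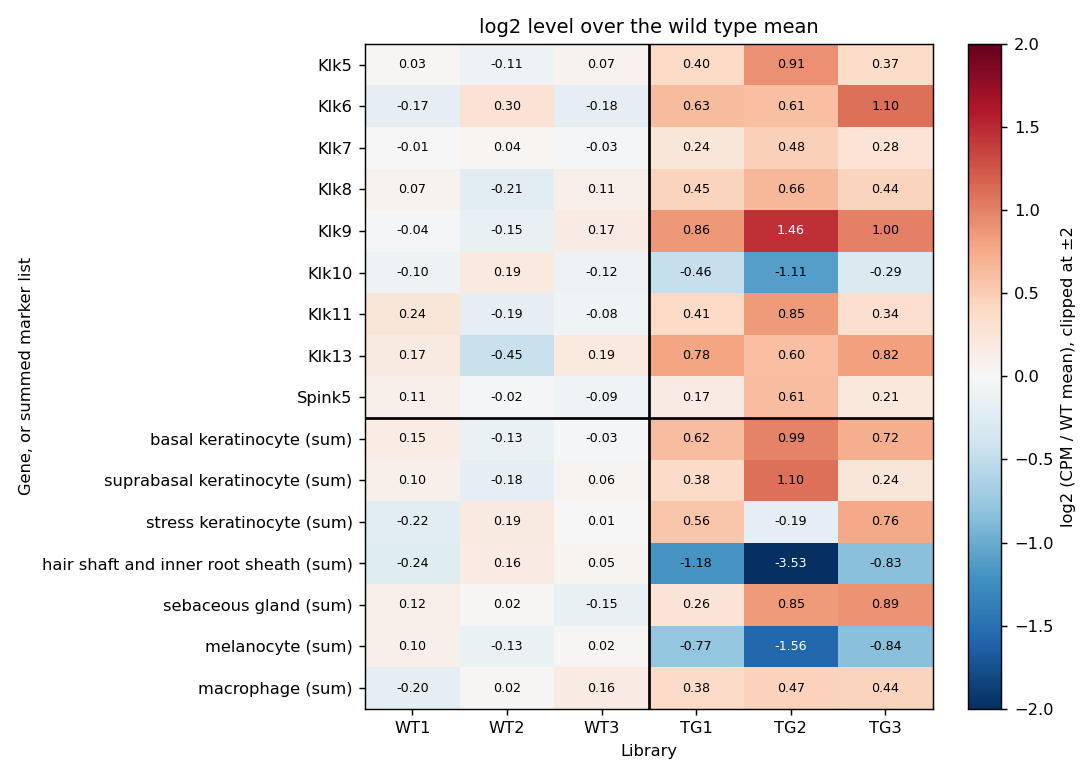
Log2 of CPM over the wild type mean for 9 members (upper rows, *Klk14* left out) and 7 summed marker lists (lower rows) in each library (columns), with the value in each cell and colours clipped at ±2. In YAP2-5SA-∆C replicate 2 *Klk10* reaches -1.11 and the hair sum -3.53, whereas *Klk9* reaches 1.46 and the suprabasal sum 1.10.

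Of 4 stress keratin genes, 2 were called higher, *Krt6b* (log2 fold change 2.85 ± 0.48, SE, edgeR FDR 0.0436) and *Krt16* (2.24 ± 0.27, edgeR FDR 0.0300). With single libraries left out, the call held in 1 of 6 fits for *Krt6b*, 2 of 6 for *Krt16* and 3 of 6 for *Krt14*. *Krt6a* (1.27 ± 0.34, edgeR FDR 0.0797) did not pass, nor did *Krt17* (-0.63 ± 0.22, edgeR FDR 0.128), which had most of the list's counts in wild type and was lower in every transgenic library. The sum of the 4 was lowest in YAP2-5SA-∆C replicate 2 among the transgenic libraries, as were *Klk6*, *Klk10* and *Klk13*. The median log2 fold change was 0.57 in both the basal and the suprabasal list, and -1.48 in the hair list, where 12 of 12 were negative and 0 were called (*Krt71* -1.37). In the sebaceous list it was 0.72 with 0 of 5 called (*Mgst1* 0.18), and in the fibroblast list 0.27 with 0 of 6 called (*Col1a1* 0.33). The macrophage list had 0.40 with 1 of 5 called higher (*Cd68* 0.31), the mast cell list 0.56 with 1 of 5 higher (*Cpa3* 0.56) and the T cell list 0.61 with 0 of 3 (*Cd3e* 0.61). The adipocyte list had 0.04 with 0 of 4 (*Adipoq* -0.07) and the skeletal muscle list -1.12 with 0 of 5 (*Acta1* -1.03). The melanocyte list had -1.13 with 2 of 5 lower (*Pmel* -1.13). Each value in brackets is the log2 fold change of the list's first gene. *Cd68*, *Cpa3* and *Pmel* were not themselves called (edgeR FDR 0.0908, 0.0531 and 0.0621). *Yap1*, the endogenous counterpart of the transgene, had 131 ± 9.45 CPM and 136 ± 7.32 CPM (SD, n = 3 each). The transgene may not be counted on that gene, so it does not check the labels. Totals of counted reads were 11225705 to 19505036 per library, and the 10 members took 0.0994% to 0.118% of them in wild type and 0.132% to 0.160% in transgenic libraries.

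The number of members called depended on the test. The likelihood-ratio test of edgeR, used by the study, called 6 of 9 higher (*Klk5*, *Klk6*, *Klk8*, *Klk9*, *Klk11* and *Klk13*), where it called 5.52% of all tested genes higher. DESeq2 called 7 higher, adding *Klk7*, and 1 lower, *Klk10*, against 6.35% and 4.18% of all tested genes. Voom with sample quality weights called 5 higher (*Klk6*, *Klk7*, *Klk8*, *Klk9* and *Klk13*), against 3.41% of all genes. After YAP2-5SA-∆C replicate 2 was left out, 4 members (*Klk5*, *Klk6*, *Klk8* and *Klk9*) passed in edgeR's quasi-likelihood fit, against 2.73% of all genes. *Klk10* was lower and the 8 other tested members were higher in all 15 alternatives.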

How the data were processed

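Raw counts for each Ensembl gene in 6 mouse skin libraries were deposited by the authors. Per the labels and methods, reads were mapped to GRCm38 with Tophat2 and Bowtie2 2.1.0, and uniquely mapped reads were counted with HTSeq-count. The annotation release and strand setting are not given in the sources used here. The methods name mRNA libraries and the labels a stranded total RNA kit.

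Genes reaching 1 CPM in 3 or more libraries were kept (15102 of 26579), and libraries were scaled by TMM. CPM values use TMM-scaled library sizes, and RPKM divides them by merged exon length in GENCODE M21. The main test was the quasi-likelihood test of edgeR 4.0.16 (R 4.3.3) with genotype as the term and Benjamini-Hochberg adjustment at 0.05. The edgeR likelihood-ratio test, voom in limma 3.58.1 and DESeq2 1.42.0 were alternatives. A standard error is the log2 fold change divided by the square root of F. Tests were checked on simulated counts. Depth ranged from 11225705 to 19505036 counts. The mice are separate littermates, with 3 per genotype.

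The members, gene lists and letters searched were chosen with earlier results of these data known. Named were all members, list genes past the threshold or otherwise the 2 with the lowest p in each pathway list, and the first gene of each marker list. *Cdsn*, *Dsc1*, *Dsg1b*, *Dsg1a*, *F2rl1*, *Klk12*, *Klk15*, *Cd33*, *Zfp719*, *2310002F09Rik*, *Krt6a*, *Krt16* and *Krt17* fall outside this rule and were named after their values were seen. *Cela2a*, *Flg*, *Il36a* and *Il36g* matched no row by symbol. Promoter sequences came from RefSeq on GRCm38.p6. One gene that this rule named is not reported here.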

Additional observations from a re-analysis of the deposited data

How the results depend on the processing

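None of the 9 tested members changed direction in the 15 alternatives. The quasi-likelihood test called 1 member higher and 288 genes in all. With upper-quartile factors it called 2 members and 416 genes, and with no low-count filter 2 members and 497 genes. The likelihood-ratio test called 6 members and 1568 genes, voom with quality weights 5 and 854, and DESeq2 7 higher, 1 lower and 1590 genes. RLE factors, a minimum of 10 counts in every library, and voom each called *Klk9* and no other member, among 357, 306 and 249 genes. With single libraries left out, between 0 and 4 members and between 0 and 817 genes were called. Members called were 0 without wild type replicate 1, 2 or 3 or YAP2-5SA-∆C replicate 3, where the quasi-likelihood test gave 9, 6, 8 and 9 members, and 3841, 2726, 2844 and 3691 genes, an unadjusted p-value under 0.05. Same-numbered libraries had correlations of -0.354, -0.259 and -0.071 between their deviations from the group means. With 3 libraries per group, such correlations cannot decide whether mice of the 2 genotypes were paired. With a replicate block, 0 members and 0 genes were called by edgeR, while unadjusted p-values were under 0.05 for 7 members and 2949 genes, and *Klk9* had an edgeR FDR of 0.162. *Klk14* is limited by its counts, at most 6 in a library, and by its overlap with a gene on the opposite strand.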
